A study of Bos taurus with 2 samples.

Results

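The testicular endothelial genes examined here are PECAM1, VWF, CDH5, KDR, TEK, TIE1, EMCN and ERG, 8 genes whose transcripts mark the cells that line blood vessels. They were chosen by name, and every non-control probe of the array that carries one of these gene names was taken, so that they were 8 of the 32428 gene names on the array, with 22 of its 51279 probes and 24 of its 61657 spots. Testis RNA came from 3 crossbred bulls (Holstein Friesian crosses) and 3 Zebu bulls (Tharparkar breed), all 24 months old, and was pooled in equal quantity by group. Both Cy3-labelled pools were read on arrays of the same slide, 1 array for crossbred and 1 for Zebu. There were thus no replicate arrays, the comparison below has no p-value, and pooling hides the spread between bulls. The labels name no treatment that differs between the groups, both were sedated and given local anaesthesia for removal of the testis, and the RNA is that of whole testicular tissue, in which fewer endothelial cells and less RNA per endothelial cell cannot be told apart.

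Endothelial cells form the inner wall of all blood vessels, hold each other through adhesion molecules at their borders, and grow and rest under the control of growth factor receptors on their surface. In the testis the vessels run in the interstitium beside the Leydig cells, while the seminiferous tubules, which hold the germ cells and Sertoli cells, contain none, so that endothelial RNA is a small part of RNA from the whole organ. Vascular endothelial growth factor A (VEGFA) acts mainly through KDR, angiopoietins act through TEK, and ERG is a transcription factor that keeps up the expression of many endothelial genes, CDH5 among them.

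None of the 8 endothelial genes differed between crossbred and Zebu testis by 1.5 or more on the log2 scale (2.83-fold), while 7.12% of the 24751 detected transcripts were higher and 2.92% were lower by that size. The gene value is that of the probe with the highest mean signal, expressed as the log2 processed signal minus the 75th percentile of the array, and all differences are crossbred minus Zebu. PECAM1, VWF and CDH5 differed by 0.08, 0.13 and 0.28, and EMCN, TEK and KDR by -0.15, -0.23 and -0.38. ERG differed by -0.65. TIE1, whose crossbred signal was too close to background to be measured, was 2.09-fold lower there when that signal was taken as it stood. The median of the 8 genes was -0.19, against -0.05 over all detected transcripts, and 5 of the 8 were below 0, against 52.8% of all. Replicate spots of 5960 probes had an SD of 0.29 (crossbred) and 0.18 (Zebu). Combined they give an SD of 0.34 for a difference between single spots, here called the tolerance. It covers spotting and scanning only, and being an SD it is not an outer limit of that spread. At a linear fold of 1.5, the other way to read a threshold of this size, ERG and TIE1 passed as lower, against 22.2% of all detected transcripts. The other measured probe of ERG passed that fold as higher, with 0.63. The mean of all ERG probes, the dim one included, was -0.44 and did not pass it, and the 2 measured probes averaged -0.01. Set against the spots, 5 of the 8 genes (PECAM1, VWF, CDH5, TEK and EMCN) lay within the tolerance, against 37.3% of all detected transcripts.

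**Figure D1:**
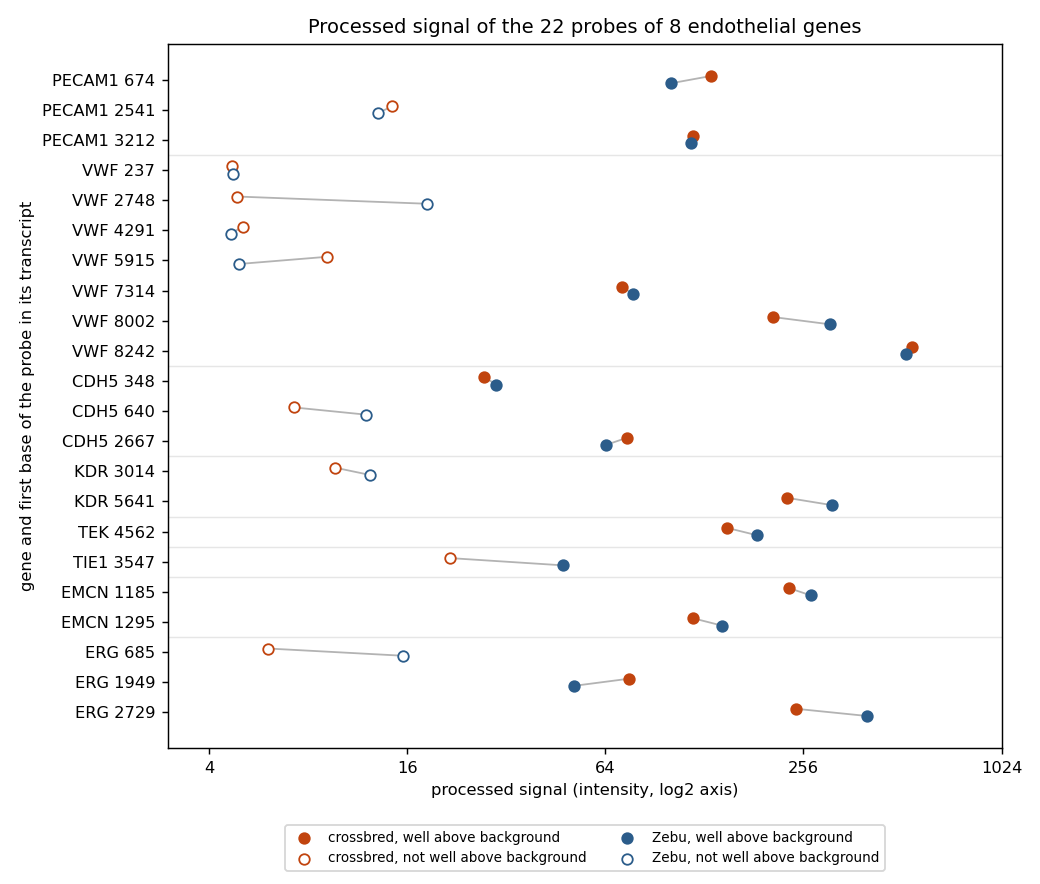
Processed signal (intensity, log2 axis) of the 22 probes of the 8 genes on the crossbred array (orange) and the Zebu array (blue), with the gene and the first base of the probe in its transcript on the vertical axis; a point is a probe, filled where well above background. The pairs of filled points lie close together, and the open points lie at or below 21.7 units.

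The measurements rest on probes of 60 bases. Of the 22 probes, 13 were well above background on both arrays. The TIE1 probe was so in Zebu testis alone, and the other 8 were so on neither array. Position and build are those of the array annotation (HGSC Btau_3.1), and no annotation of exons or untranslated parts for that build was used here. The crossbred array has a dark patch of 544 spots and a bright patch of 105 spots. None of the 24 spots lay in either patch, none was marked as an outlier by the scanner software, and no spot of the array was saturated. Around the 24 spots, the median difference of the 18 nearest spots ran from -0.62 to 0.30. No probe under another gene name shared 25 or more consecutive bases with any of the 22, on either strand, or listed one of their RefSeq, GenBank or Ensembl accessions.

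VWF, the von Willebrand factor, is a large adhesive glycoprotein that endothelial cells store and release and that binds platelets at sites of injury. It has 7 probes, the most among the 8 genes, and their sequences are shown because they follow 1 long transcript from its start to its end while only some of them gave a signal. They are written as in the array files, each holds at least 1 forward reading frame without a stop codon, and no base is set in capitals because no part of a probe was singled out.
VWF base 237: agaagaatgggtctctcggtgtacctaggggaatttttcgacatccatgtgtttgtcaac
VWF base 2748: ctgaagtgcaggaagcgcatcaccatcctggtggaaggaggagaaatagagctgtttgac
VWF base 4291: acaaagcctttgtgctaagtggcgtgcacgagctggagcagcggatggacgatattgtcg
VWF base 5915: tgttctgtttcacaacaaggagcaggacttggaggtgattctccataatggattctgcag
VWF base 7314: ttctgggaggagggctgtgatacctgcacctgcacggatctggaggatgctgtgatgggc
VWF base 8002: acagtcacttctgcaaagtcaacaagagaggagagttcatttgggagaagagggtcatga
VWF base 8242: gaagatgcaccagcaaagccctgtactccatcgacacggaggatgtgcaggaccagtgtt

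The VWF probes at bases 237, 2748, 4291 and 5915 were not well above background on either array. In this order their processed signals were 4.71, 4.86, 5.06 and 9.14 for crossbred testis. For Zebu testis they were 4.72, 18.3, 4.65 and 4.92. The difference of the probe at base 2748, -1.85, therefore gives no fold, since both of its signals were below the lowest of any probe well above background, 21.4 (crossbred) and 20.1 (Zebu). The 3 probes nearest the end of the transcript were well above background on both arrays.

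At base 7314 (chr5:111191896-111191955), VWF gave a signal of 72.1 (crossbred) and 77.8 (Zebu), which after normalization differed by -0.04. At base 8002 (chr5:111205057-111205116) it had 207 and 307, a difference of -0.50. At base 8242 (chr5:111209392-111209451), the probe used for the gene, the 2 spots read 558 and 536 (crossbred) and 555 and 493 (Zebu), so that they differed by 0.07 and 0.19. The 3 measured probes of VWF thus spanned 0.63 and crossed 0, so the direction of VWF depended on the probe that was read.

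**Figure D2:**
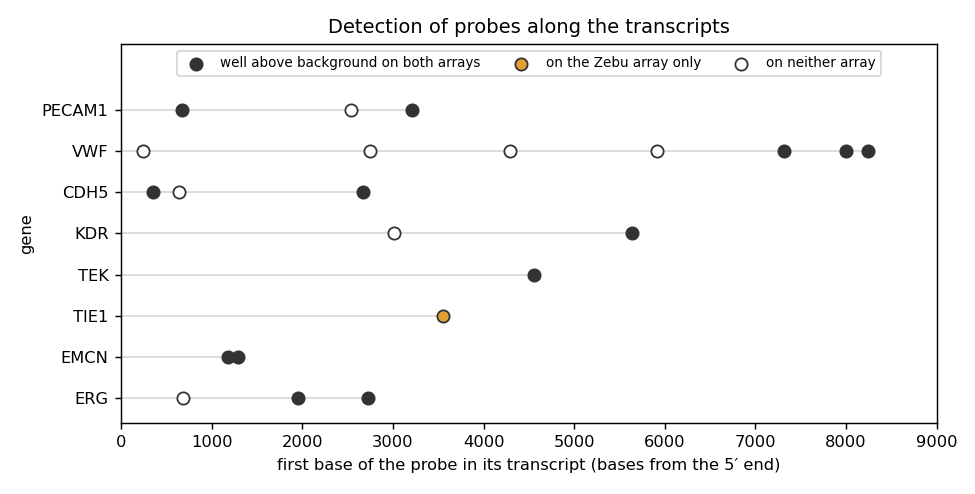
First base of each probe in its transcript (horizontal axis, bases from the 5′ end) for the 8 genes (vertical axis); black points were well above background on both arrays, the yellow point on the Zebu array only and white points on neither. In VWF the 3 probes from base 7314 on were detected and the 4 before it were not.

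The same split by position was seen in part of the other genes. Among the 6 transcripts with several probes, the last probe was well above background on both arrays in 6 of 6, and of the 13 probes before it 6 were. Over the 8658 transcripts of the array that have a RefSeq accession and several probes, 88.8% of the last probes and 77.9% of the earlier ones were. The RNA was reverse transcribed from an oligo dT primer, which starts at the 3′ end, and the part of this step in the split was not tested. The letters AATAAA, the common polyadenylation signal, were searched in the probe sequences as given, not on the other strand, and occurred in 3 of the 22 probes (the probe of TEK, the probe of TIE1 and the last probe of ERG), against 8.35% of the 51279 probes of the array.

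PECAM1, an adhesion molecule at the borders of endothelial cells that platelets and leukocytes also carry, has 3 probes on chromosome 19. At base 3212 (chr19:50062763-50062822) its 2 spots read 122 and 114 (crossbred) and 114 and 120 (Zebu), and their mean log2 signals differed by 0.08. The spots of both arrays overlapped. At base 674 (chr19:50111112-50111171) the signal was 134 (crossbred) and 102 (Zebu), which differed by 0.47. The probe at base 2541, designed on another sequence record of the gene, had signals of 14.4 and 13.0 and was not well above background on either array. Both measured probes were above 0, and they were about equally bright, so the choice between them decided the value of the gene.

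CDH5, vascular endothelial cadherin, joins endothelial cells at their adherens junctions, and its probes lie on a scaffold that the build had not placed on a chromosome. At base 2667 (positions 25241 to 25300 of the scaffold) the signal was 74.7 (crossbred) and 64.4 (Zebu), which differed by 0.28. At base 348 (positions 40296 to 40355) it was 27.5 and 29.9, a difference of -0.05. The probe at base 640 was at 7.25 and 12.02, not well above background on either array, although it lies between the detected probes. Both measured differences of CDH5 were within the tolerance.

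The probes of CDH5 at base 640, ERG at base 685 and KDR at base 3014 are shown because they gave no signal while a later probe of the same gene did. The first covers 921 bases of the genome and the second 11240, since they join parts of the transcript that are apart in the genome, while the last covers 60.
CDH5 base 640: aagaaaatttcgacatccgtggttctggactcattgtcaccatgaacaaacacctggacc
ERG base 685: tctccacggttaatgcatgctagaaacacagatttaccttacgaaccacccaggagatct
KDR base 3014: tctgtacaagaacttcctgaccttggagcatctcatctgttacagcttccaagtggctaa

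KDR is the main receptor of endothelial cells for vascular endothelial growth factor. Its probe at base 5641 (chr6:73149108-73149167) had a signal of 228 in crossbred and 312 in Zebu testis, and the difference of -0.38 was 1.11 times the tolerance between spots. Its probe at base 3014 (chr6:73163790-73163849) had 9.68 and 12.3 and was not well above background on either array. The KDR difference was thus of about the size by which replicate spots differ, and a single spot carries the value.

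TEK, the receptor tyrosine kinase that binds angiopoietins, has 1 probe in 1 spot (chr8:17507541-17507600). Its signal was 150 in crossbred and 185 in Zebu testis, and the difference of -0.23 was within the tolerance. TIE1, a related receptor that forms complexes with TEK, also has 1 probe in 1 spot (chr3:109614401-109614460). Its signal was 21.7 on the crossbred array, just above the lowest signal of any probe well above background there, and 47.5 on the Zebu array, where it was well above background. After normalization TIE1 was 2.09-fold lower in crossbred testis, a log2 bound of -1.07, the largest difference among the 8 genes. The bound was the probe's own dim signal, not the background limit, so 2.09-fold is not a firm minimum. Of all detected transcripts, 21.7% differed by at least 1 in either direction. The 18 spots around TIE1 had a median of -0.39, and after normexp background correction with an offset of 50 the gene differed by -0.23.

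EMCN, endomucin, is a mucin-like glycoprotein on the surface of capillary and venous endothelium, and its 2 probes lie close together in its transcript. At base 1185 (chr6:26012254-26012313) the signal was 232 in crossbred and 270 in Zebu testis, and at base 1295 (chr6:26012364-26012423) it was 119 and 145. The differences of -0.15 and -0.22 were 0.07 apart and both within the tolerance. Of the 5 genes with several measured probes, EMCN had the closest ones.

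ERG, a transcription factor of the ETS family, was the gene whose probes differed most from each other. At base 2729 (chr1:154092273-154092332) the signal was 243 in crossbred and 400 in Zebu testis, a difference of -0.65. At base 1949 (chr1:154093052-154093111) it was 75.8 and 51.3, a difference of 0.63 in the opposite direction. The probe at base 685 had 6.05 and 15.5 and was not well above background on either array. The measured probes of ERG were 1.28 apart, and their mean was -0.01. Over the 4758 gene names of the array with 2 measured probes the median distance between them was 0.28, and over the 8185 with 2 or more it was 0.39, with an upper quartile of 0.78.

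**Figure D3:**
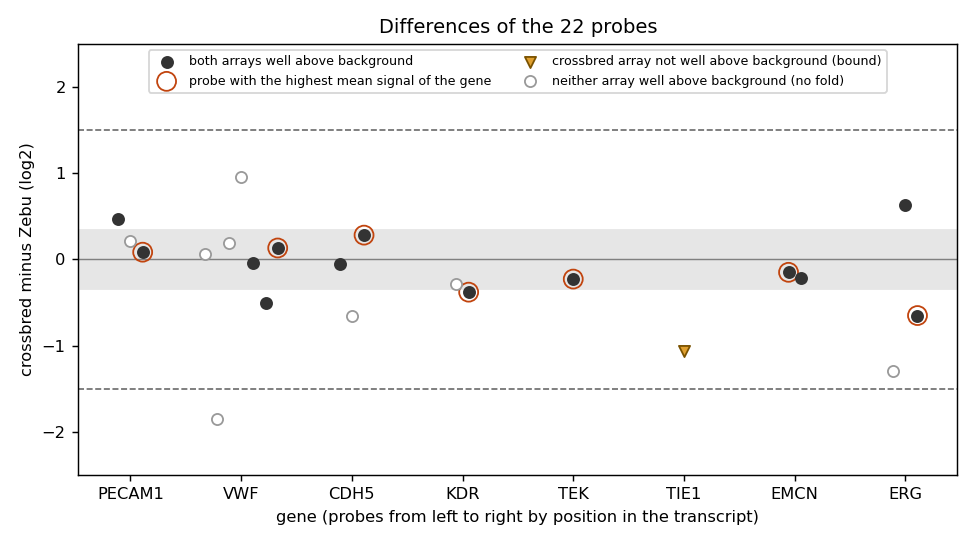
Crossbred minus Zebu difference (log2) of each of the 22 probes by gene, with probes ordered by position in the transcript; black points were well above background on both arrays, the triangle is the bound of TIE1, white points were well above background on neither, and orange rings mark the probe used for the gene. The grey band is the tolerance of 0.34 and dashed lines mark 1.5 in size; no measured point crosses them.

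Of the 13 measured probes, 8 were below 0 and 5 above, with a median of -0.05. VWF, CDH5 and ERG each had measured probes on either side of 0. Signals of different probes depend on probe sequence and position, so the 8 genes were not ranked by level. With 2 arrays each gene has 1 difference, so no other gene was named for a like pattern.

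Other genes of endothelial cells went both ways. Of 27 further endothelial genes on the array, 26 were well above background on both arrays. None of these differed by 1.5 or more, against 10.0% of all detected transcripts. Of the 26, 13 were above 0 and 13 below, against 52.8% of all below 0, and the median was -0.0043. CLDN5, the claudin of endothelial tight junctions, read 5468 (crossbred) and 2286 (Zebu), which differed by 1.33, and the 2 further probes gave 0.98 and 1.54. CLDN5 was higher in crossbred testis in all of its 3 probes, and which cells of the whole tissue gave its signal was not tested. FLT1, a receptor for vascular endothelial growth factor that binds it tightly but signals weakly, read 55.2 and 26.5, which differed by 1.13, and its other probe was not detected. Its Zebu signal was near the lowest measurable one of 20.1 on that array. BMX, a tyrosine kinase expressed in endothelium, differed by 1.01 in a single probe.

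NOS3, the nitric oxide synthase of endothelium, read 1028 (crossbred) and 2056 (Zebu), which differed by -0.93, and the second probe gave -0.87. ROBO4, a guidance receptor of endothelial cells, differed by -0.89, but its second probe differed by 1.29, and CD34, a sialomucin of endothelial and blood stem cells, differed by -0.74 against 0.85 in its second probe. ENG, a co-receptor for transforming growth factor beta, differed by 0.0067 and its 2 other detected probes by 0.17 and 0.47. PTPRB, the phosphatase that acts on TEK and CDH5, differed by 0.12, and ESAM, an adhesion molecule of endothelial tight junctions, by 0.02.

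Of 9 ligands, those of the vascular endothelial growth factor and angiopoietin families and apelin (APLN), 8 passed the background limit in both testes. APLN, which acts on a receptor of its own, passed it in Zebu testis alone. None of the 9 differed by 1.5 or more, against 10.0% of all detected transcripts, and the median was -0.29. VEGFA, the main ligand of KDR, differed by 0.67 and its second detected probe by 0.44. VEGFC differed by -0.70 and -0.84, and VEGFB by -0.34 with 3 other probes from -0.49 to -0.32. ANGPT1, which activates TEK, read 1221 and 757, which differed by 0.76, and 2 other probes at 0.16 and 0.37. ANGPT2, which can act against it, differed by -0.29, with 2 other probes at -1.48 and 0.10. VEGFA and ANGPT1 were thus above 0, and VEGFB and VEGFC below 0, in every detected probe. Of the remaining ligands, FIGF differed by -0.13, PGF by -0.72 with a second detected probe at -0.14, and ANGPT4 by -0.58. APLN was 1.04-fold lower when its dim crossbred signal was taken as it stood. The co-receptors NRP1 and NRP2 differed by -0.29 and -0.55. The crossbred signal of NRP2, 25.2, was near the lowest measurable one of 21.4. The receptor FLT4 is not on the array under that name. Of the 3 other receptors read, 2 were below 0, against 52.8% of all detected transcripts, and the median was -0.29. FLT1, also counted among the endothelial genes above, was above 0.

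The proteins that tie CDH5 to the cytoskeleton are also used by epithelial and Sertoli cells. By their brightest probes all 5 differed below 0, against 52.8% of all detected transcripts, with a median of -0.46. CTNND1 differed by -0.38, but its 2 other probes gave -0.23 and 0.56, so its direction depended on the probe. CTNNB1 differed by -0.46, CTNNA1 by -0.44 and VCL by -0.86. JUP, plakoglobin, was the only one lower by 1.5 or more, against 2.92% of all detected transcripts. It differed by -1.71, but its 2 other probes differed by -0.68 and -0.17 and the call was lost when all probes were averaged. Of 11 ETS factors related to ERG, 10 were detected, with a median of 0.15 that turned to -0.29 when all probes of a gene were averaged. FLI1, the relative closest to ERG, differed by -0.01 and ETS1 by -0.61. ELF1 read 1082 and 51.4 and was higher by 4.46, but the 18 spots around it had a median of 1.23 and its 3 other probes a median of 0.21, and it did not reach 1.5 when all probes were averaged.

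At 1.5 or more in size, a level that 10.0% of all detected transcripts reached, stood 1 of the 4 lymphatic markers (PROX1) and 1 of the 8 detected genes of activation and haemostasis (EDN1). PROX1, a transcription factor of lymphatic endothelial cells, read 3243 (crossbred) and 805 (Zebu), which differed by 2.08, and the second probe gave 2.10. Which cells of the whole tissue gave the PROX1 signal was not tested. Of the other lymphatic markers, LYVE1 differed by 0.50, CCL21 by 0.22 and PDPN by -1.42, and none of these reached 1.5. LYVE1 read 34.2 and 25.4, near the lowest measurable signals of 21.4 and 20.1, and its other probes were not detected. EDN1, endothelin, a vasoconstrictor peptide, read 28.4 and 137, which differed by -2.20, and the second probe gave -1.23. Its crossbred signal was near the lowest measurable one of 21.4, and with normexp background correction no gene of its list reached 1.5. THBD, thrombomodulin, differed by -1.37 in its only probe. VCAM1 and ICAM1, adhesion molecules for leukocytes, differed by -0.37 and -0.46, with other probes from -0.45 to -0.12 and from -0.44 to -0.43. SELP and TFPI went the other way. SELP read 1202 (crossbred) and 711 (Zebu), a difference of 0.83 in its only probe, and TFPI had 0.70 and, in its second probe, 0.53. SELE, the selectin of inflamed endothelium, was not well above background on either array. Of the 8 detected genes of activation and haemostasis, 6 were below 0, against 52.8% of all detected transcripts, with a median of -0.46. Only EDN1 was lower by 1.5 or more, against 2.92% of all.

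**Figure D4:**
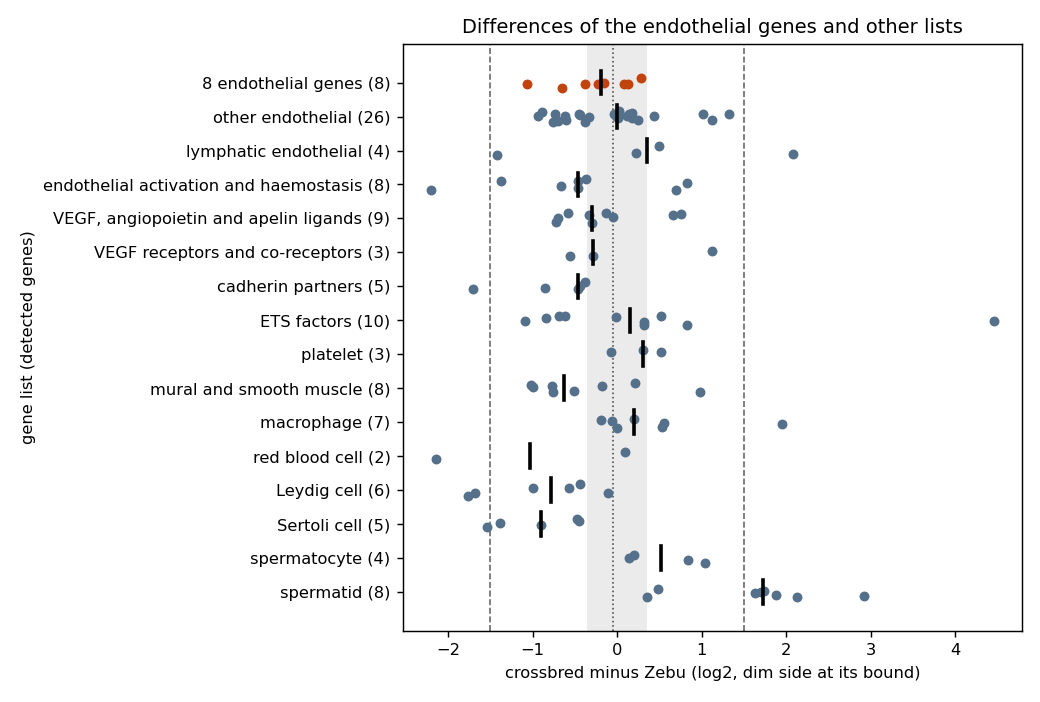
Crossbred minus Zebu difference (log2, horizontal axis, dim side at its bound) of each detected gene in the 8 endothelial genes (orange) and in the other lists (blue), with the number of detected genes in brackets; black bars are list medians, the dotted line is the median of all detected transcripts at -0.05, the grey band is the tolerance of 0.34 and dashed lines mark 1.5 in size. The 8 endothelial genes and the 26 other endothelial genes have medians of -0.19 and -0.0043, and the spermatid markers have 1.73.

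Markers of other cells of the testis were read the same way. All 8 spermatid markers were above 0, against 46.8% of all detected transcripts, and 6 of them were higher by 1.5 or more, against 7.12%. Their median was 1.73, and their summed processed signal was 620715 (crossbred) and 335868 (Zebu). The 6 were SPEM1 (2.92), ODF1 (2.13), PRM2 (1.88), TNP2 (1.74), AKAP4 (1.71) and ACRV1 (1.64), genes of sperm packaging and structure. The 4 spermatocyte markers were above 0, against 46.8% of all detected transcripts, with a median of 0.52, and none reached 1.5. All 6 Leydig cell markers and all 5 Sertoli cell markers were below 0, against 52.8% of all detected transcripts, with medians of -0.79 and -0.90. The steroid enzymes HSD3B1 and CYP17A1 differed by -1.77 and -1.68, and DHH, a signal from Sertoli to Leydig cells, by -1.53. Markers of mural and smooth muscle cells, which wrap the vessels and the tubules, had a median of -0.63 over 8 genes, with summed signals of 34591 and 63704. ACTA2, MYH11, DES, TAGLN and CNN1 lay between -1.02 and -0.50, and every other detected probe of MYH11, DES, TAGLN and CNN1 was also below 0. By their brightest probes, RGS5 and CSPG4 went the other way. RGS5 differed by 0.21, with signals of 37.1 and 33.6, near the lowest measurable ones of 21.4 and 20.1. CSPG4 differed by 0.98, with a median of -0.39 in its other detected probes. PDGFRB was 1.13-fold lower in crossbred testis with its dim signal there set at the lowest one well above background, which is not a firm minimum. Macrophage markers had a median of 0.20 over 7 genes, among them AIF1 with 1.95. The summed signal of the 8 endothelial genes, the dim TIE1 signal included, was 1614 in crossbred and 1918 in Zebu testis. All summed signals given here are those before normalization between arrays, and the brightest probes weigh most in them. Whether shares of other cells moved the endothelial values was not tested, and with 1 array per group the lists were not tested against each other.

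PECAM1 and VWF are also carried by platelets. Of 6 platelet markers on the array, PF4, PPBP and GP5 were not well above background on either array, and ITGA2B and TREML1 differed by 0.31 and 0.52. GP1BA was 1.05-fold lower in crossbred testis with its dim signal there set at the lowest one well above background, which is not a firm minimum. Of 5 red blood cell markers, HBB, ALAS2 and SLC4A1 were not well above background on either array, and AHSP differed by 0.09. HBA, haemoglobin alpha, read 617 (crossbred) and 2864 (Zebu), which differed by -2.15 in 1 probe. The part of blood left in the tissue in the endothelial values was not tested.

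The values of the 8 genes were also computed under 10 other ways of processing. No gene reached 1.5 in size in any of them. The median of the 8 genes lay between -0.22 and -0.07. KDR, TEK and ERG were below 0 throughout, from -0.51 to -0.30, from -0.26 to -0.05 and from -0.68 to -0.44, and so was TIE1 wherever it had a value. Except for the mean of all probes, every ERG value came from the probe at base 2729. That mean, -0.44, included the dim probe of ERG, and its 2 measured probes alone averaged -0.01. PECAM1 stayed above 0, from 0.06 to 0.79, the upper value being that of its other probe. VWF and CDH5 turned below 0, to -0.15 and -0.14, when all probes of the gene were averaged with dim ones at their deposited signal. EMCN was below 0 except with the 18 nearest spots subtracted, where it was 0.0013.

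**Figure D5:**
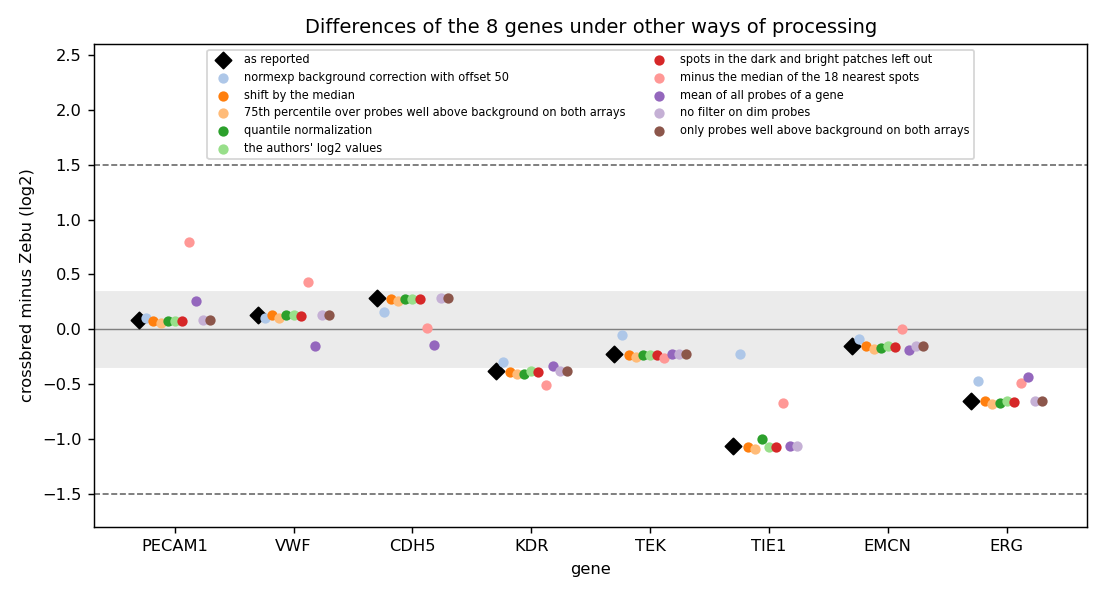
Crossbred minus Zebu difference (log2, vertical axis) of the 8 genes (horizontal axis) as reported (black diamonds) and under 10 other ways of processing (coloured points); the grey band is the tolerance of 0.34 and the dashed lines mark 1.5 in size. No point reaches a dashed line, and TIE1 spreads most, from -1.09 to -0.23.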

How the data were processed

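Testis RNA of 3 crossbred and 3 Zebu bulls was pooled by group and measured on 1 Cy3 array per group. The authors deposited the processed signal of each spot, an intensity from Agilent Feature Extraction 11.5.1.1, corrected for background and for trends across the array, with no normalization between arrays. They also deposited the mean and background intensity and flags of each spot (saturated, outlier, well above background, coded 0 or 1), and log2 values shifted by the 75th percentile.

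Control spots and 13 outlier spots were left out. The mean log2 signal of the spots was taken for each probe, and the array's 75th percentile was subtracted, 1176 and 1233 on the signal scale for crossbred and Zebu. A probe was well above background where all its spots were, which held for 72.0% and 74.3% of spots. Each gene took the value of its brightest probe by mean log2 signal, and called detected if either array had that probe well above background. Higher and lower genes needed a difference of 1.5 or more in size with the brighter array well above background. The methods compute differences of log2 values and name a fold of 1.5, which was read as a log2 difference, with the linear fold as an alternative. A dim side entered medians at its bound, the higher of its own value and the lowest value well above background on that array (-5.78 crossbred, -5.94 Zebu).

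The members and lists were chosen with earlier results of these data known. All probes of the 8 genes are named, and of the other lists the genes at 1.5 or more in size and ligands, receptors or partners of a member, while other genes of the lists were chosen after their values were seen. Of the names on the lists, 12 are not on the array, and 1 of them, VEGFD, was read under its older name FIGF. The steps were tested on simulated data. Values were computed with pandas 2.3.3 and numpy 2.4.6 under Python 3.11.15, and normexp with limma 3.58.1 under R 4.3.3. With 1 array per group, the number of arrays limits the precision.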

Additional observations from a re-analysis of the deposited data

How the results depend on the processing

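The alternatives were normexp, quantile normalization, a median shift, a 75th percentile of doubly detected probes, the authors' own log2 table, both patches left out, the 18 nearest spots subtracted, the mean of all probes, no filter on dim probes and only probes well above background on both arrays, beside other thresholds. In the last of the filters TIE1 has no value, and 1.74% of all transcripts were lower. TIE1 moved to -0.23 with normexp and to -0.67 with the 18 nearest spots subtracted. PECAM1 moved to 0.79 with the 18 nearest spots subtracted, where its other probe was read, and 1 of the other endothelial genes, CLDN5, then passed 1.5. CDH5 moved to -0.14 with the mean of all probes. With normexp, 4.16% of all transcripts were higher and 0.683% lower. At a threshold of 1, 1 of the 8 genes (TIE1) and 3 of the other endothelial genes (CLDN5, FLT1 and BMX) passed, with 12.8% of all transcripts higher and 8.87% lower. At a linear fold of 1.5, 2 of the 8 and 10 of the other endothelial genes passed, with 21.4% higher and 22.2% lower. The cause of the shifts under normexp and the nearest spots was not tested. The remaining values of the 8 genes moved by less than the tolerance of 0.34. Leaving out a replicate or taking the slide as a block was not run, since each group has 1 array and both share a slide. No paired analysis was possible because each group has 1 array and the result comes from no test. Dim signal left 8 of the 22 probes without a measured difference.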
